A study of Mus musculus with 8 samples.

Results

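The nuclear genes for the subunits of the mitochondrial respiratory chain and ATP synthase were followed in mouse bone marrow-derived macrophages (BMM). A gene was included if its name on the array began with Nduf, a letter a, b, c, s or v and a number (complex I), was Sdha, Sdhb, Sdhc or Sdhd (complex II), or began with Uqcr (complex III), with Cox, a number from 4 to 8 and a letter from a to c (complex IV), or with Atp5 and a letter from a to o (complex V). The rule reads names alone. It gave 78 genes, of which 75 were tested among 28001 genes in all. The genes tested were 37 of complex I, 4 of complex II, 7 of complex III, 13 of complex IV and 14 of complex V. Cox8b was well above background on 1 of the 8 arrays, and Cox7b2 and Cox8c on 0 of 8, so these 3 genes were not tested. The other 75 were well above background on all 8 arrays.

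The macrophages had been grown from the marrow of female mice aged 6 to 8 weeks for 6 days in medium conditioned by L929 cells, a fibroblast line that secretes the macrophage growth factor CSF1. They were Cullin 3 wild type (WT) or Cullin 3 knockout (KO). Cullin 3 holds together ubiquitin ligases that mark proteins for degradation. Cells were left untreated or given lipopolysaccharide (LPS), the bacterial cell-wall component sensed by Toll-like receptor 4, for 6 hours. The 4 groups, WT untreated, WT with LPS, KO untreated and KO with LPS, held 2 samples each, and 0.5 micrograms of RNA per sample was labelled with Cy3 and hybridised to 1 array. How the knockout was made, in which cells the gene was deleted, and whether animals were pooled is not given in the sources used here.

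The respiratory chain passes electrons from NADH (complex I) and succinate (complex II) through coenzyme Q to complex III, then through cytochrome c to complex IV, where oxygen is reduced. Complexes I, III and IV pump protons across the inner mitochondrial membrane, and complex V, the ATP synthase, uses the gradient to make ATP. Complex II lacks mitochondrially encoded subunits, while the other complexes combine nuclear subunits with some made from mitochondrial DNA. In macrophages activated by LPS, ATP production is known to move from this chain towards glycolysis, and succinate oxidation at complex II and electron flow back into complex I have been described as sources of reactive oxygen.

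Levels are log2 signals relative to the 75th percentile of the same array, so 0 is the 75th percentile and a difference of 1 is a doubling. Levels are compared between samples only, because probes differ in their response. A gene is said to have risen or fallen where limma, fitted to all genes and all 8 arrays, gave an adjusted p under 0.05. Whether the replicates were separate cultures or mice is not stated, so the p-values rest on a spread that may be only technical. All 8 arrays lay on 1 slide, with WT in 1 row and KO in another, and untreated samples in other columns than LPS samples, so slide position cannot be told apart from genotype or treatment. Arrays had a 75th percentile of 676 to 1553 signal units, with 60.9% to 73.7% of their spots well above background. The Cul3 probe stood at 1.78 and 1.80 in untreated WT, 2.40 and 2.43 in WT with LPS, 1.38 and 1.28 in untreated KO and 1.92 and 1.88 in KO with LPS. It differed between KO and WT by -0.46 ± 0.11 (SE, limma, adjusted p = 0.0905) untreated, and was lower in KO by 0.52 ± 0.11 (SE, limma, adjusted p = 0.0302) with LPS. Where this probe lies relative to the deleted part is not given in the sources used here. All 8 macrophage markers were well above background in every group.

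The 75 genes were compared between the replicates of each group before any test. Untreated WT replicate 2 was below replicate 1 for 72 of the 75 genes, by a median of -0.32 against -0.11 over all genes. In WT with LPS, replicate 2 was above replicate 1 for 53 genes, with a median of 0.14 against 0.016 over all genes. The KO replicates lay closer, with medians of 0.10 untreated and -0.027 with LPS.

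**Figure D1:**
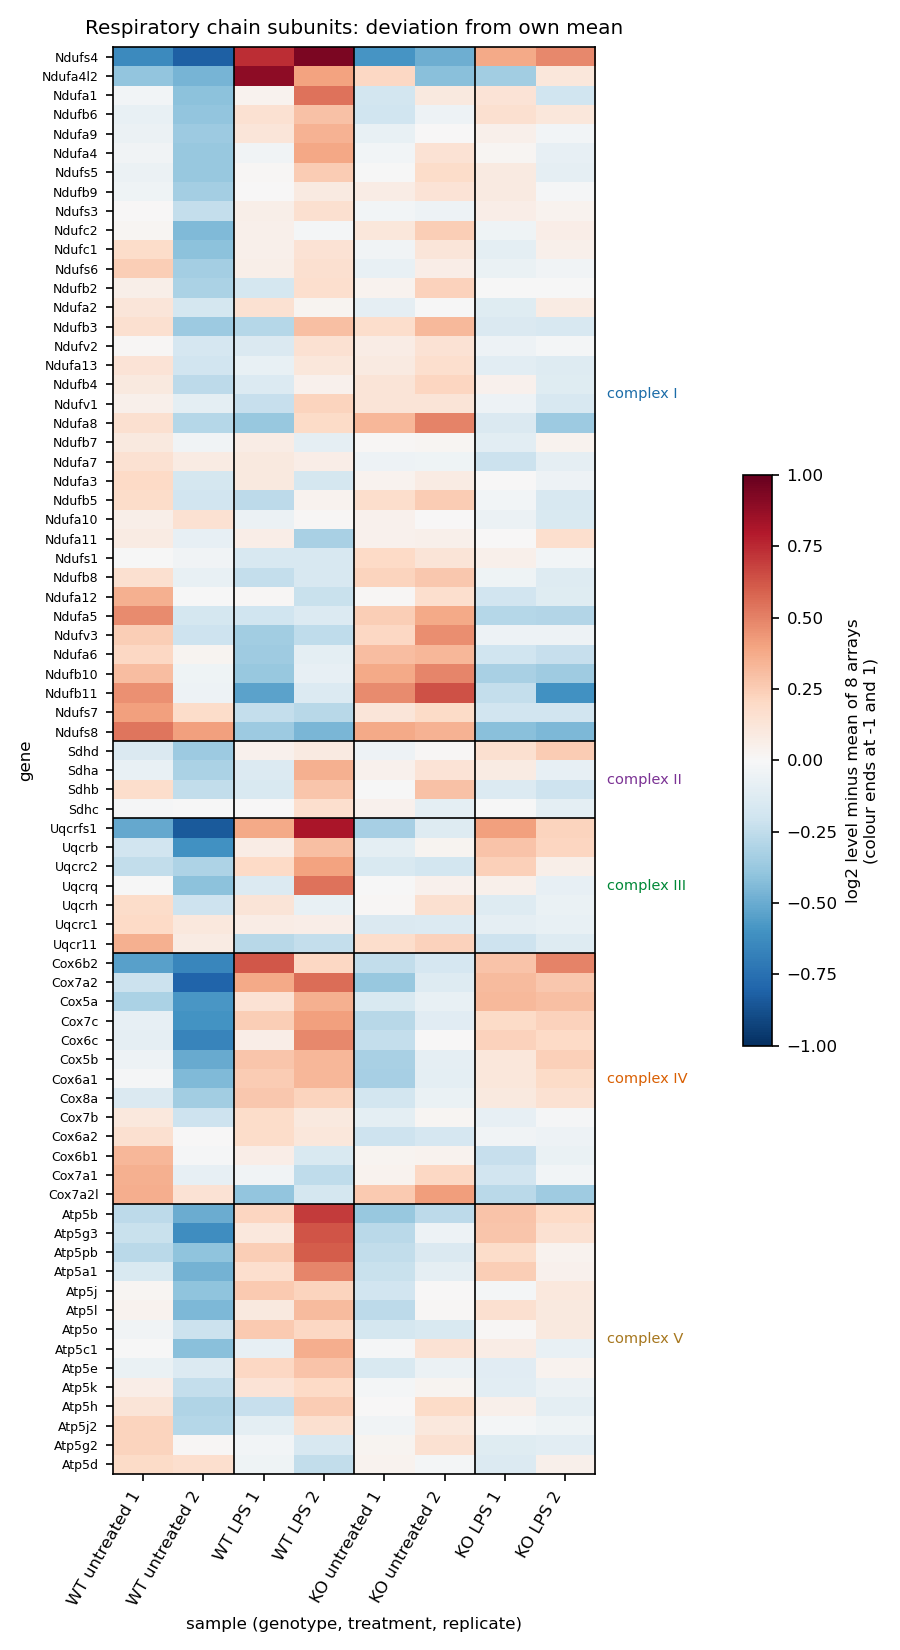
Each cell is the log2 level of a gene in a sample minus that gene's mean over the 8 arrays, with genes in rows by complex (1 member is not shown) and samples in columns. Untreated WT replicate 2 is low for most rows, and Ndufs4, Uqcrfs1 and Ndufs8 separate LPS from untreated samples in both genotypes.

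LPS moved the subunit genes in WT cells in both directions, and the medians differed by complex. Of the 75 genes, 19 rose and 4 fell, against 57.7% of all genes called, 35.7% higher and 22% lower. At an unadjusted p under 0.05 it was 28 members, against 63% of all genes. The median difference was 0.15 over the members and 0.30 over all genes. Complex IV had 7 genes up and 1 down with a median of 0.52, complex III 3 up and 1 down with 0.41, and complex V 5 up and 0 down with 0.35. Complex I, the largest group, had 4 up and 2 down with a median of 0.037. In complex II, 0 of the 4 genes passed the threshold, with 1 at an unadjusted p under 0.05 and a median of 0.20. The LPS samples lay wholly above the untreated samples for 31 members and wholly below for 14, against 49% and 29.1% of all genes.

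The count in WT rested on single samples and on the scaling. Without untreated WT replicate 2, 6 members rose and 5 fell, without LPS replicate 2 of WT it was 10 and 4, and with only the 4 WT arrays in the fit it was 8 and 1. With quantile normalization 3 rose and 47 fell, and in the authors' deposited log2 values, which carry no scaling, 2 rose and 52 fell. With medians of the arrays aligned it was 10 and 9, with spike-in probes aligned 17 and 6, and after normexp background correction 22 and 10. Among all genes fitted, 7038 rose and 8459 fell with quantile normalization, and 2450 and 8495 unscaled. For all genes it was 8413 and 6893 with medians aligned, 9035 and 6395 with spike-in probes aligned, and 16315 and 5548 after normexp. The median over all genes was -0.044 with quantile normalization and -0.59 unscaled, where the members' medians were -0.59 and -0.64. The mean log2 signal of 8 spike-in probes was 12.6 to 13.0 on the LPS arrays and 13.4 to 13.8 on the untreated arrays. Of the 19 genes that rose, 6 kept a positive difference under all 6 other scalings (Ndufs4, Uqcrfs1, Ndufa4l2, Cox6b2, Cox7a2 and Atp5b), and Ndufs4 and Uqcrfs1 were called in each. The 4 that fell (Ndufs8, Ndufs7, Uqcr11 and Cox7a2l) were called lower under all 6.

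The lowest and the highest complex were the same under each scaling, while complexes III and V changed places. Complex I had the lowest and complex IV the highest median LPS difference under the main and the 6 other scalings, in WT and in KO cells. Aligning array medians, spike-in probes or the members' own median shifts every gene of an array alike. These scalings therefore could not change the order of the complexes, and their agreement adds nothing to it. Complex III was above V in WT as reported (0.41 and 0.35) but below it unscaled (-0.46 and -0.44) and after normexp (0.33 and 0.34). In KO it was below V (0.059 and 0.11) but above it with quantile normalization (-0.30 and -0.42). Relative to the median of all members, complex IV lay 0.37 higher in WT and 0.39 higher in KO, with a range over the scalings of 0.33 to 0.38 and 0.32 to 0.39. Complex I lay at -0.11 and -0.071. Sample by sample, the median deviation of complex IV genes from their own means, less that of all members, was -0.10 and -0.18 in untreated WT, 0.14 and 0.054 in WT with LPS, -0.20 and -0.12 in untreated KO and 0.13 and 0.23 in KO with LPS. The same quantity for complex I was 0.045 and 0.071 in untreated WT, -0.08 and -0.10 in WT with LPS, 0.078 and 0.10 in untreated KO and -0.032 and -0.054 in KO with LPS. For complex V it was -0.044 and -0.088 in untreated WT and 0.071 and 0.10 in WT with LPS. In KO, complex V stood at -0.16 and -0.053 untreated and 0.048 and 0.075 with LPS. Thus all 4 LPS samples were above all 4 untreated samples for complexes IV and V and below them for complex I. Members are not replicates, so this order is a description with no test.

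**Figure D2:**
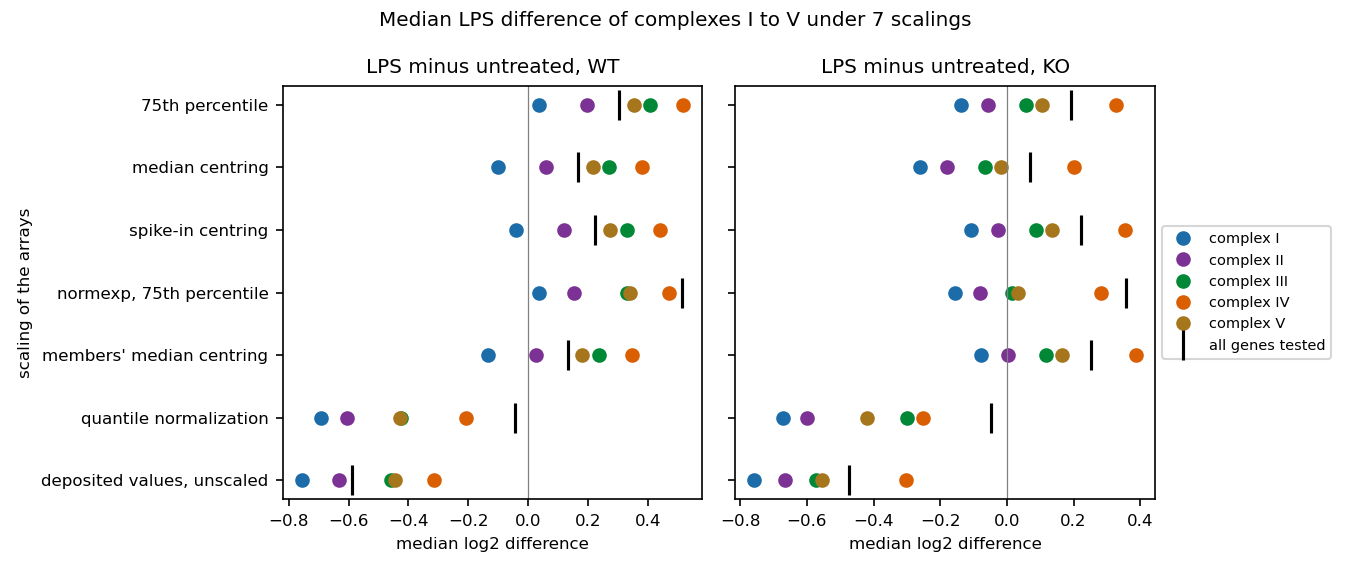
Points are the median log2 LPS difference of each complex and ticks the median over all genes tested, under 7 scalings of the arrays (rows), in WT (left) and KO (right). All medians shift together with the scaling, while complex I stays lowest and complex IV highest. Scalings that only shift whole arrays could not change this order.

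Ndufs4, an accessory subunit at the NADH-oxidising arm of complex I that is needed for a stable complex, had the largest LPS difference among the members in WT and the largest rise in KO. Its probe, at chr13:115078980-115079039 of mm9, read 4.36 and 4.19 in untreated WT, 5.73 and 5.94 in WT with LPS, 4.41 and 4.51 in untreated KO and 5.37 and 5.48 in KO with LPS. LPS and untreated samples did not overlap in either genotype. Ndufs4 rose by 1.56 ± 0.14 (SE, limma, adjusted p = 1.60e-04) in WT, a 2.96-fold level, and rose by 0.97 ± 0.14 (SE, limma, adjusted p = 0.00177) in KO, a 1.96-fold level.

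Ndufs7 and Ndufs8, which carry iron-sulfur clusters on the path to coenzyme Q, went the other way. Ndufs8 (probe at chr19:3911177-3911236) read 4.41 and 4.28 in untreated WT, 3.51 and 3.42 in WT with LPS, 4.25 and 4.22 in untreated KO and 3.45 and 3.42 in KO with LPS. It fell by 0.88 ± 0.12 (SE, limma, adjusted p = 0.00102) in WT and fell by 0.80 ± 0.12 (SE, limma, adjusted p = 0.00202) in KO, to 0.542 and 0.576 of the untreated level. Ndufs7 (probe at chr10:79719478-79719537) read 5.73 and 5.50 in untreated WT, 5.08 and 5.04 in WT with LPS, 5.44 and 5.51 in untreated KO and 5.13 and 5.12 in KO with LPS. Both genotypes had lower LPS samples without overlap, and Ndufs7 fell by 0.56 ± 0.13 (SE, limma, adjusted p = 0.0107) in WT, with -0.35 ± 0.13 (SE, limma, adjusted p = 0.0665) in KO. The core subunits Ndufs1, Ndufs3, Ndufv1 and Ndufv2 had differences of -0.14 to 0.23 in WT, and 0 of these 4 passed the threshold.

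Among the other accessory subunits, Ndufa9, which lies near the coenzyme Q site, rose by 0.45 ± 0.16 (SE, limma, adjusted p = 0.047) and Ndufb6, of the membrane arm, rose by 0.45 ± 0.15 (SE, limma, adjusted p = 0.0431) in WT. Both had negative differences with quantile normalization and unscaled. Ndufb10 and Ndufb11, of the membrane arm, and Ndufa6, which carries an LYR motif, fell in KO cells. Ndufb11 read 6.37 and 5.87 in untreated WT, 5.38 and 5.78 in WT with LPS, 6.39 and 6.56 in untreated KO and 5.68 and 5.31 in KO with LPS, and it fell by 0.98 ± 0.24 (SE, limma, adjusted p = 0.0162) in KO, with -0.54 ± 0.24 (SE, limma, adjusted p = 0.0995) in WT, where the groups did not overlap either. A second probe at nearly the same place gave -0.56 in WT and -0.81 in KO, and a dimmer probe -1.50 and -1.04 (limma, adjusted p = 4.79e-04 and 0.00297). Ndufb10 read 5.81 and 5.46 in untreated WT, 5.12 and 5.42 in WT with LPS, 5.88 and 5.99 in untreated KO and 5.17 and 5.14 in KO with LPS, and it fell by 0.77 ± 0.17 (SE, limma, adjusted p = 0.0111) in KO. Ndufa6 read 5.09 and 4.91 in untreated WT, 4.53 and 4.79 in WT with LPS, 5.20 and 5.21 in untreated KO and 4.69 and 4.66 in KO with LPS, and it fell by 0.53 ± 0.14 (SE, limma, adjusted p = 0.0209) in KO. All 3 were called lower in KO under the 6 other scalings. The tested difference between the KO and WT responses was -0.44 ± 0.34 (SE, limma, adjusted p = 0.507) for Ndufb11 and -0.41 ± 0.24 (SE, limma, adjusted p = 0.39) for Ndufb10, so their fall was not shown to be particular to KO cells.

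Ndufa4 and Ndufa4l2 are paralogues. Ndufa4 was first assigned to complex I and is now placed with complex IV, and Ndufa4l2 is known as a hypoxia-inducible gene. Ndufa4 read 5.35 and 5.01 in untreated WT, 5.36 and 5.78 in WT with LPS, 5.36 and 5.53 in untreated KO and 5.41 and 5.31 in KO with LPS, with a difference of 0.39 ± 0.20 (SE, limma, adjusted p = 0.137) in WT. Ndufa4l2 read -5.73 and -5.80 in untreated WT, -4.44 and -4.94 in WT with LPS, -5.13 and -5.76 in untreated KO and -5.68 and -5.23 in KO with LPS. Only the WT samples with LPS were set apart, and Ndufa4l2 rose by 1.08 ± 0.28 (SE, limma, adjusted p = 0.0175) in WT, with -0.012 ± 0.28 (SE, limma, adjusted p = 0.976) in KO. The test of that difference in response gave -1.09 ± 0.40 (SE, limma, adjusted p = 0.185), the largest in size among the members. Ndufa4l2 was also the dimmest of the tested members, so its differences rest on low signals. Ndufa8, of the intermembrane side, had the largest KO minus WT difference untreated in complex I, 0.47 ± 0.24 (SE, limma, adjusted p = 0.314), from levels of 5.10 and 4.65 in untreated WT, 4.56 and 5.12 in WT with LPS, 5.26 and 5.43 in untreated KO and 4.79 and 4.57 in KO with LPS. The remaining complex I genes had differences of -0.32 (Ndufv3) to 0.51 (Ndufa1) in WT and 0 of them passed. For Ndufv3 and Ndufb5 a second probe fell in WT, by 1.22 (limma, adjusted p = 5.92e-04) and 0.74 (adjusted p = 0.00340), where the brighter probe gave -0.32 and -0.11. The same second probes fell in KO too, with -0.56 and -0.87 (limma, adjusted p = 0.0190 and 0.00216). There the brighter probe gave -0.38 and -0.31.

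**Figure D3:**
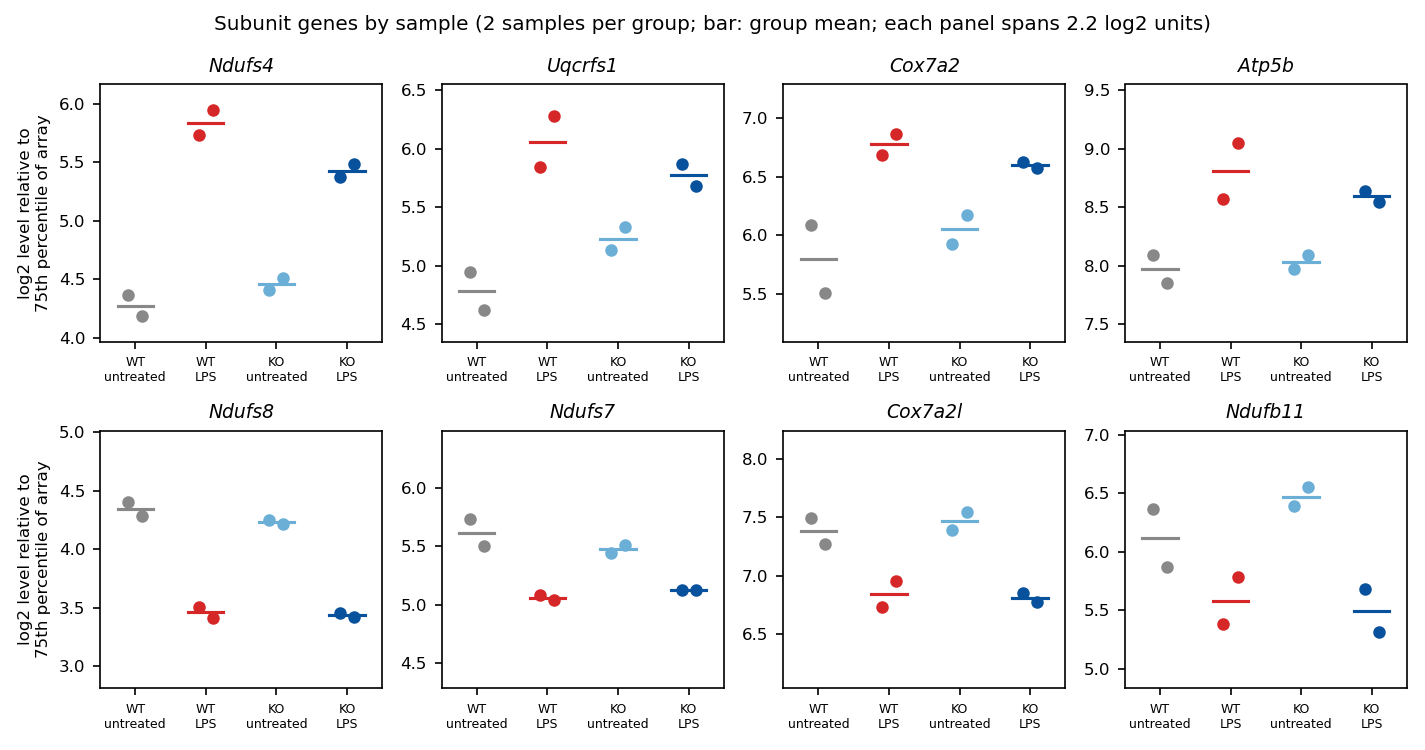
Points are the log2 levels of 8 subunit genes in each sample and bars the group means, with every panel spanning 2.2 log2 units. In the upper row LPS samples lie above untreated samples of the same genotype, and in the lower row below them.

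Complex II oxidises succinate, and its 4 genes are all nuclear. Sdha, the flavoprotein, read 5.22 and 4.98 in untreated WT, 5.15 and 5.65 in WT with LPS, 5.33 and 5.43 in untreated KO and 5.37 and 5.21 in KO with LPS. Sdhb, the iron-sulfur subunit, read 6.98 and 6.57 in untreated WT, 6.66 and 7.08 in WT with LPS, 6.81 and 7.10 in untreated KO and 6.67 and 6.60 in KO with LPS. Neither separated the treated from the untreated samples in WT. Of the membrane anchors, Sdhc read 5.85 and 5.86 in untreated WT, 5.87 and 6.03 in WT with LPS, 5.90 and 5.76 in untreated KO and 5.86 and 5.76 in KO with LPS. The other anchor, Sdhd, read 5.85 and 5.64 in untreated WT, 6.04 and 6.08 in WT with LPS, 5.95 and 6.01 in untreated KO and 6.16 and 6.25 in KO with LPS. The LPS samples were above the untreated samples for Sdhd in both genotypes, with differences of 0.32 ± 0.13 (SE, limma, adjusted p = 0.0766) in WT and 0.23 ± 0.13 (SE, limma, adjusted p = 0.193) in KO. For Sdhb the differences were 0.097 ± 0.22 (SE, limma, adjusted p = 0.724) in WT and -0.32 ± 0.22 (SE, limma, adjusted p = 0.271) in KO. Across the 4 genes the 95% intervals of the LPS difference ran from -0.43 to 0.78 in WT and from -0.85 to 0.54 in KO, so changes of that size remain possible.

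In complex III, the largest response was that of Uqcrfs1, the Rieske iron-sulfur protein that takes electrons from the quinol. Its probe, at chr13:30632363-30632422, read 4.95 and 4.62 in untreated WT, 5.84 and 6.28 in WT with LPS, 5.13 and 5.33 in untreated KO and 5.87 and 5.68 in KO with LPS. All LPS samples exceeded the untreated samples of both genotypes. Uqcrfs1 rose by 1.27 ± 0.20 (SE, limma, adjusted p = 0.00226) in WT, a 2.42-fold level, with 0.55 ± 0.20 (SE, limma, adjusted p = 0.0675) in KO. Uqcrc2, a core protein, rose by 0.58 ± 0.14 (SE, limma, adjusted p = 0.0112), and Uqcrb, a small subunit near the quinone site, rose by 0.58 ± 0.18 (SE, limma, adjusted p = 0.0301) in WT. All 3 Uqcrb probes were called higher in WT, and both genes had negative differences with quantile normalization and unscaled. Uqcr11, the smallest subunit (named Uqcr on the array), read 6.03 and 5.76 in untreated WT, 5.39 and 5.43 in WT with LPS, 5.85 and 5.90 in untreated KO and 5.46 and 5.54 in KO with LPS and fell by 0.48 ± 0.14 (SE, limma, adjusted p = 0.0236) in WT, with -0.37 ± 0.14 (SE, limma, adjusted p = 0.0634) in KO. Uqcrc1, Uqcrh and Uqcrq differed by -0.079, 0.034 and 0.41 in WT and did not pass.

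Complex IV held the most genes that rose in WT, and several of its subunits have tissue isoforms. Cox7a2, the isoform of most tissues, read 6.09 and 5.51 in untreated WT, 6.69 and 6.87 in WT with LPS, 5.93 and 6.18 in untreated KO and 6.62 and 6.58 in KO with LPS and rose by 0.98 ± 0.22 (SE, limma, adjusted p = 0.00882) in WT, with 0.55 ± 0.22 (SE, limma, adjusted p = 0.0787) in KO. Cox7a1, the heart and muscle isoform, read 1.48 and 1.05 in untreated WT, 1.10 and 0.87 in WT with LPS, 1.16 and 1.33 in untreated KO and 0.94 and 1.10 in KO with LPS, with -0.28 ± 0.19 (SE, limma, adjusted p = 0.243) in WT. Cox7a2l, also called SCAF1, joins complexes III and IV into supercomplexes. Its levels were 7.49 and 7.28 in untreated WT, 6.74 and 6.95 in WT with LPS, 7.39 and 7.54 in untreated KO and 6.85 and 6.77 in KO with LPS. LPS samples were below untreated samples in both genotypes, and Cox7a2l fell by 0.54 ± 0.15 (SE, limma, adjusted p = 0.0207) in WT and fell by 0.65 ± 0.15 (SE, limma, adjusted p = 0.0119) in KO. All 3 of its probes were called lower in both genotypes.

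Cox6b2, the testis isoform of the subunit that links the complex IV dimer, read -2.83 and -2.94 in untreated WT, -1.66 and -2.08 in WT with LPS, -2.53 and -2.46 in untreated KO and -2.00 and -1.79 in KO with LPS, and it rose by 1.01 ± 0.18 (SE, limma, adjusted p = 0.00322) in WT and rose by 0.60 ± 0.18 (SE, limma, adjusted p = 0.0301) in KO. Cox6b1, the isoform of other tissues, read 4.65 and 4.31 in untreated WT, 4.39 and 4.17 in WT with LPS, 4.35 and 4.36 in untreated KO and 4.09 and 4.26 in KO with LPS, with -0.20 ± 0.17 (SE, limma, adjusted p = 0.333) in WT. The 2 isoforms thus had differences of opposite sign, of which that of Cox6b2 was called. Cox6a1, the general isoform, read 8.40 and 7.97 in untreated WT, 8.66 and 8.74 in WT with LPS, 8.08 and 8.31 in untreated KO and 8.53 and 8.61 in KO with LPS and rose by 0.52 ± 0.18 (SE, limma, adjusted p = 0.0445) in WT. Cox6a2, the heart and muscle isoform, read -0.27 and -0.42 in untreated WT, -0.24 and -0.32 in WT with LPS, -0.64 and -0.59 in untreated KO and -0.47 and -0.48 in KO with LPS, with 0.065 ± 0.12 (SE, limma, adjusted p = 0.663) in WT and -0.19 ± 0.12 (SE, limma, adjusted p = 0.321) in KO against WT with LPS, the largest such difference in complex IV. Of the Cox8 isoforms, Cox8a, that of most tissues, read 7.42 and 7.21 in untreated WT, 7.83 and 7.78 in WT with LPS, 7.38 and 7.49 in untreated KO and 7.66 and 7.72 in KO with LPS and rose by 0.49 ± 0.13 (SE, limma, adjusted p = 0.0179) in WT, while Cox8b and Cox8c, of muscle and testis, were not well above background. A second Cox8a probe gave 0.36 in WT and did not pass (limma, adjusted p = 0.109).

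Cox5a and Cox5b, which surround the catalytic core, and Cox7c also rose in WT, by 0.70, 0.58 and 0.67 (limma, adjusted p = 0.00735, 0.0353 and 0.0247). Cox6c and Cox7b differed by 0.65 and 0.19 and did not pass. With quantile normalization and unscaled, Cox5a, Cox5b, Cox6a1, Cox7c and Cox8a had negative differences, of -0.042 to -0.33.

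In the ATP synthase, the genes that rose in WT were of the catalytic head, the stalk and the membrane ring. Atp5b, the catalytic beta subunit, read 8.09 and 7.85 in untreated WT, 8.57 and 9.05 in WT with LPS, 7.97 and 8.09 in untreated KO and 8.64 and 8.55 in KO with LPS. It rose by 0.84 ± 0.19 (SE, limma, adjusted p = 0.0102) in WT, a 1.79-fold level, with 0.56 ± 0.19 (SE, limma, adjusted p = 0.0501) in KO. Atp5a1, the alpha subunit, rose by 0.64 ± 0.18 (SE, limma, adjusted p = 0.0227), and Atp5o, which joins head and stalk, rose by 0.36 ± 0.12 (SE, limma, adjusted p = 0.0469) in WT. Atp5pb, the b subunit of the stalk (named Atp5f1 on the array), read 5.14 and 5.01 in untreated WT, 5.66 and 6.02 in WT with LPS, 5.17 and 5.27 in untreated KO and 5.60 and 5.45 in KO with LPS and rose by 0.76 ± 0.16 (SE, limma, adjusted p = 0.00762) in WT. A second Atp5pb probe rose in both genotypes, by 0.83 in WT and 0.54 in KO (limma, adjusted p = 0.00299 and 0.0201). KO against WT with LPS gave -0.32 ± 0.16 (SE, limma, adjusted p = 0.238) for Atp5pb, the largest such difference in complex V. Atp5a1, Atp5o and Atp5pb had negative WT differences with quantile normalization and unscaled.

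The c ring that turns with proton flow is encoded by several genes for 1 mature protein. Atp5g3 read 6.81 and 6.41 in untreated WT, 7.14 and 7.67 in WT with LPS, 6.76 and 6.98 in untreated KO and 7.31 and 7.19 in KO with LPS and rose by 0.79 ± 0.23 (SE, limma, adjusted p = 0.0245) in WT. Atp5g2 read 7.66 and 7.45 in untreated WT, 7.42 and 7.28 in WT with LPS, 7.47 and 7.59 in untreated KO and 7.32 and 7.33 in KO with LPS, with -0.21 ± 0.13 (SE, limma, adjusted p = 0.219) in WT. Atp5g1 was not analysed here. The Atp5g3 difference was -0.011 with quantile normalization and -0.14 unscaled. Atp5c1, the gamma subunit of the rotor, read 6.36 and 5.94 in untreated WT, 6.28 and 6.72 in WT with LPS, 6.35 and 6.50 in untreated KO and 6.43 and 6.28 in KO with LPS, with 0.28 ± 0.21 (SE, limma, adjusted p = 0.487) in KO against WT untreated. Atp5d and Atp5e, the other rotor subunits, had WT differences of -0.32 and 0.35, and the other 5 genes of 0.063 (Atp5j2) to 0.43 (Atp5j), without passing. Of 5 Atp5l probes, 1 rose in WT, by 0.69 (limma, adjusted p = 0.0192).

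In KO cells, 2 members rose with LPS, Ndufs4 and Cox6b2, and 5 fell, Ndufb11, Ndufs8, Ndufb10, Cox7a2l and Ndufa6. Among all genes 48.5% were called, 27.9% higher and 20.6% lower. At an unadjusted p under 0.05 it was 16 members, against 55.5% of all genes. The median over the members was -0.065 against 0.19 over all genes, and by complex it was -0.14 for I, -0.057 for II, 0.059 for III, 0.33 for IV and 0.11 for V. LPS samples lay wholly above untreated samples for 23 members and wholly below for 30, against 47.5% and 31.7% of all genes. Without KO untreated replicate 1 the count was 1 up and 3 down, and without KO untreated replicate 2 or KO LPS replicate 2 it was 1 and 1. With quantile normalization 2 rose and 46 fell, and unscaled 0 and 53. Among all genes fitted, 6051 rose and 7593 fell with quantile normalization, and 2263 and 7845 unscaled.

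The LPS difference was smaller or more negative in KO than in WT for 64 of the 75 members, yet 0 passed the test of the difference (limma, 3 at an unadjusted p under 0.05). Of all genes 4.34% passed, 1.51% higher and 2.82% lower, and 21.8% had an unadjusted p under 0.05. The median difference in response was -0.24 over the members and -0.11 over all genes, and -0.012 over the members with quantile normalization. These differences share the untreated WT samples with each other, in which replicate 2 was low for 72 members. Beyond Ndufa4l2, the largest in each complex were -0.42 ± 0.31 (SE, limma, adjusted p = 0.49) for Sdhb, -0.73 ± 0.29 (SE, limma, adjusted p = 0.213) for Uqcrfs1, -0.43 ± 0.31 (SE, limma, adjusted p = 0.471) for Cox7a2 and -0.46 ± 0.23 (SE, limma, adjusted p = 0.309) for Atp5pb. The smallest adjusted p was that of Ndufs4, at -0.59 ± 0.20 (SE, limma, adjusted p = 0.153).

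**Figure D4:**
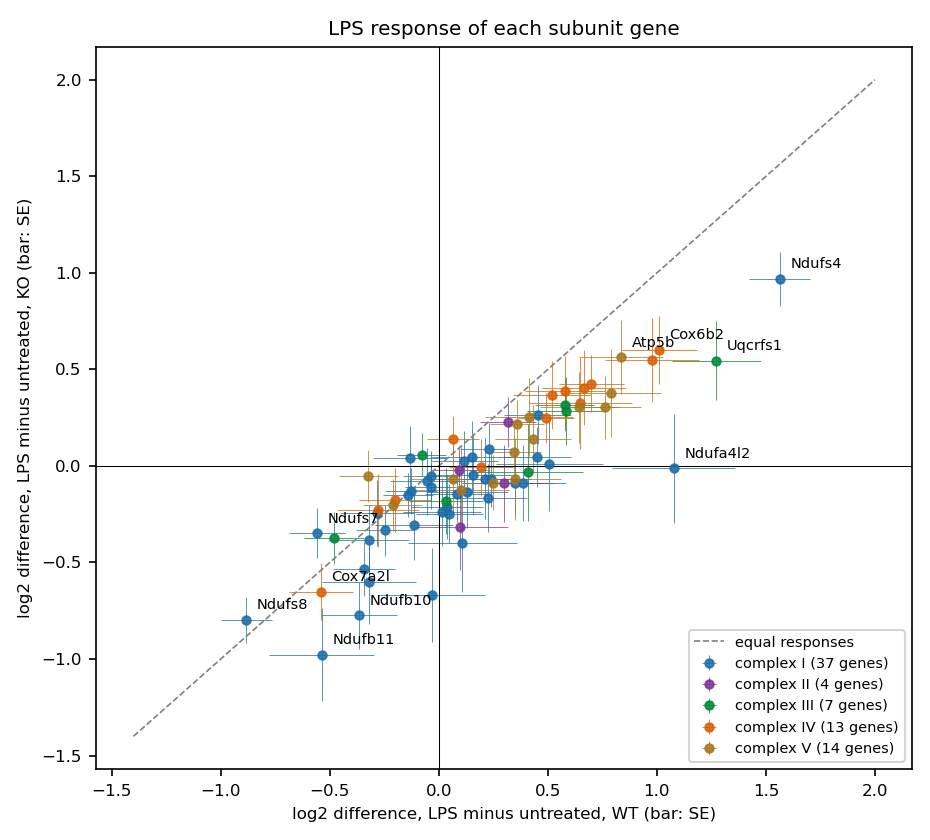
Each point is a subunit gene, with its log2 LPS difference in WT on the horizontal axis and in KO on the vertical axis and bars of 1 SE. Most points lie below the dashed line of equal responses, and Ndufs4 is at the upper right and Ndufs8 and Ndufb11 at the lower left.

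Between genotypes, 0 of the 75 members passed the test in untreated cells (limma, 1 at an unadjusted p under 0.05), and 0 with LPS (2 at an unadjusted p under 0.05). Of all genes, 3.26% passed untreated (2.15% higher, 1.11% lower, 21.5% at an unadjusted p under 0.05) and 16.3% with LPS (7.86% higher, 8.48% lower, 32.3% at an unadjusted p under 0.05). KO samples lay wholly above WT samples for 23 members and below for 7 untreated, against 34.9% and 25% of all genes, and for 6 and 21 with LPS, against 24.7% and 32.8%. The untreated median was 0.15 over the members, with 57 positive and 18 negative, and 0.055 over all genes. With LPS it was -0.11, with 16 positive and 59 negative, and -0.073 over all genes. The largest untreated differences by complex were those of Ndufa8 above, 0.28 ± 0.20 (SE, limma, adjusted p = 0.443) for Sdha, 0.44 ± 0.20 (SE, limma, adjusted p = 0.271) for Uqcrfs1, 0.39 ± 0.18 (SE, limma, adjusted p = 0.267) for Cox6b2 and that of Atp5c1 above. The smallest adjusted p untreated was that of Uqcrc1, at -0.29 ± 0.11 (SE, limma, adjusted p = 0.21). With LPS the smallest was that of Ndufs4, at -0.41 ± 0.14 (SE, limma, adjusted p = 0.0994), and the largest difference in size was -0.77 ± 0.28 (SE, limma, adjusted p = 0.121) for Ndufa4l2. Over all members the 95% intervals of the KO minus WT difference ran from -0.63 to 1.07 untreated and from -1.45 to 0.70 with LPS. So the arrays do not show that the genotypes were alike for any single subunit.

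Markers of other cells moved with genotype and treatment. Of 12 neutrophil markers, 7 were higher and 0 lower in untreated KO cells, and 7 higher and 1 lower in KO with LPS, against 2.15% and 1.11%, and 7.86% and 8.48%, of all genes. Their summed level on a linear scale, as multiples of the 75th percentile, was 52.0 to 54.7 in untreated WT, 112 to 120 in WT with LPS, 84.1 to 88.5 in untreated KO and 173 to 189 in KO with LPS. Of the 12, Retnlg was not well above background in WT with LPS. Of 8 stromal and endothelial markers tested, 2 were higher and 1 lower in untreated KO cells, against 2.15% and 1.11% of all genes. With LPS it was 1 and 1, against 7.86% and 8.48%. Their median KO minus WT difference was 0.37 untreated and 0.39 with LPS, while their linear sum, in which bright markers weigh most, was lower in KO. The summed level of 9 stromal and endothelial markers was 6.34 to 6.42 in untreated WT, 26.8 to 32.1 in WT with LPS, 3.83 to 4.07 in untreated KO and 18.8 to 19.9 in KO with LPS, with Pdgfra not well above background in 3 of the 4 groups. That of the 8 macrophage markers was 976 to 1060 in untreated WT, 1502 to 1530 in WT with LPS, 672 to 872 in untreated KO and 1309 to 1373 in KO with LPS. Of 10 genes of G2/M and mitosis, 8 fell and 2 rose with LPS in both genotypes, against 22% of all genes lower in WT and 20.6% in KO. Unscaled, 3 fell and 1 rose in WT and 3 fell and 2 rose in KO. Alas2, a marker of red cell precursors, was not well above background in any group, nor were Clec9a and Xcr1, of dendritic cells, in 3 of the 4 groups. The part of these cells in the subunit differences was not tested. In bulk RNA, fewer cells of a type and less RNA per cell cannot be told apart.

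The mitochondrially encoded subunits, each probed once on chromosome M, did not follow a common direction. Of 13 probes, 4 rose and 1 fell with LPS in WT, and 3 rose and 0 fell in KO, against 35.7% of all genes higher and 22% lower in WT and 27.9% and 20.6% in KO. In WT the count was 1 up and 9 down both with quantile normalization and unscaled, and in KO it was 1 and 1, and 1 and 5. ND6, the complex I subunit read from the strand opposite to the others, stood at -1.69 and -2.15 in untreated WT, 0.082 and 0.81 in WT with LPS, -1.81 and -1.37 in untreated KO and 0.95 and 0.61 in KO with LPS. It rose by 2.36 ± 0.31 (SE, limma, adjusted p = 9.28e-04) in WT and rose by 2.37 ± 0.31 (SE, limma, adjusted p = 0.00115) in KO, and was called higher under all 6 other scalings. The core of complex IV is made of COX1, COX2 and COX3. COX1 stood at 8.61 and 8.44 in untreated WT, 9.24 and 9.24 in WT with LPS, 8.32 and 8.54 in untreated KO and 8.72 and 8.93 in KO with LPS. COX2 stood at 8.22 and 8.02 in untreated WT, 8.73 and 8.64 in WT with LPS, 7.76 and 7.99 in untreated KO and 8.42 and 8.45 in KO with LPS. COX3 stood at 7.85 and 7.60 in untreated WT, 8.32 and 8.12 in WT with LPS, 7.37 and 7.57 in untreated KO and 8.05 and 8.02 in KO with LPS. For all 3, the LPS samples lay above the untreated samples of both genotypes. In WT, COX1 rose by 0.72 ± 0.15 (SE, limma, adjusted p = 0.00637), COX2 rose by 0.56 ± 0.14 (SE, limma, adjusted p = 0.0149) and COX3 rose by 0.50 ± 0.15 (SE, limma, adjusted p = 0.0303). In KO, COX2 rose by 0.56 ± 0.14 (SE, limma, adjusted p = 0.0179) and COX3 rose by 0.56 ± 0.15 (SE, limma, adjusted p = 0.0233), with 0.39 ± 0.15 (SE, limma, adjusted p = 0.0659) for COX1. The differences called for these 3 turned negative with quantile normalization and unscaled.

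The probes of the other complex I subunits read differently. ND4L stood at 5.18 and 5.48 in untreated WT, 4.92 and 4.03 in WT with LPS, 4.87 and 4.73 in untreated KO and 4.49 and 4.68 in KO with LPS and fell by 0.85 ± 0.29 (SE, limma, adjusted p = 0.0464) in WT, where replicate 2 with LPS lay well below replicate 1. ND1 stood at 4.82 and 4.79 in untreated WT, 4.32 and 3.12 in WT with LPS, 4.21 and 4.30 in untreated KO and 3.88 and 4.74 in KO with LPS, with -1.08 ± 0.43 (SE, limma, adjusted p = 0.0709) in WT. In the same WT replicate, CYTB of complex III read 6.40 against 7.40 in the other. That replicate was the higher of the pair for 53 of the 75 nuclear members and the lower for 12 of the 13 mitochondrial probes. Between genotypes 0 of the 13 passed in either condition (limma, 0 and 1 at an unadjusted p under 0.05).

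**Figure D5:**
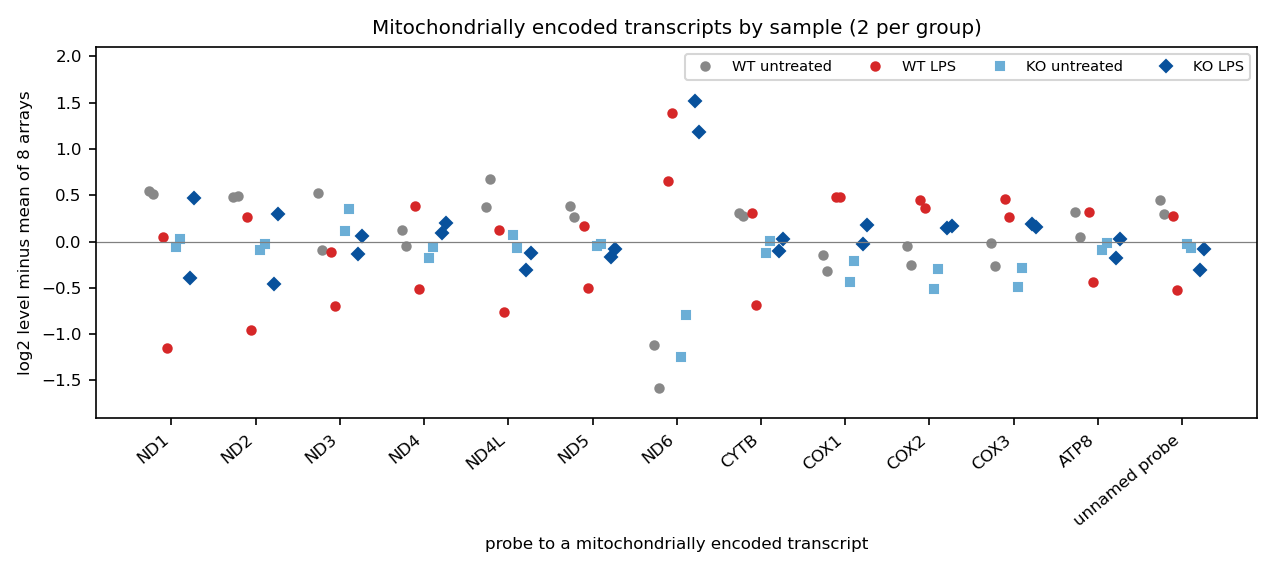
Points are the log2 levels of 13 mitochondrially encoded probes in each sample minus the probe's mean over the 8 arrays. ND6 is higher in all 4 LPS samples, COX1, COX2 and COX3 are higher in the LPS samples of each genotype, and WT with LPS replicate 2 is the lowest sample for several others.

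The promoters of the members were searched for motifs of factors known to bind genes of the respiratory chain. RefSeq windows on GRCm38.p6, each from 250 bases before to 50 after a transcription start, were matched by symbol for 65 of the 78 members (70 windows) and compared with all 32851 windows. NRF1, a regulator of nuclear genes for mitochondrial proteins, was searched by its 10-base consensus, and 25.7% of member windows and 4.6% of all windows held it. The ETS motif CCGGAAG, bound by GABP, was in 22.9% against 8.86%. The YY1 motif AAGATGGCG was in 10% against 1.4%, the cyclic AMP response element TGACGTCA in 5.71% against 1.79%, and the ERR motif TCAAGGTCA in 2.86% against 0.423%. Both strands were read, and none of these motifs overlapped another in the stretches shown. Among the 15 windows of members that rose in WT, NRF1 was in 3, ETS in 3 and YY1 in 2, and among 49 windows of members that did not pass it was 15, 11 and 4. In the 4 windows of members that fell, NRF1 was in 0, ETS in 2 and YY1 in 1. The cyclic AMP response element was in 1 of the 15, 3 of the 49 and 0 of the 4. For ERR it was 1, 1 and 0. A match is a description of the letters and shows no binding.

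The bases before the start are shown for 3 genes that rose in WT and for Uqcr11, which fell, to let the motifs be seen in place, on the minus strand of chr13:30545317-30545416, chr2:73911327-73911426, chr5:115348959-115349128 and chr10:80406822-80406921. Capitals mark the motif, and each run ends at the base before the start.
Uqcrfs1 (cyclic AMP response element, first base at -29): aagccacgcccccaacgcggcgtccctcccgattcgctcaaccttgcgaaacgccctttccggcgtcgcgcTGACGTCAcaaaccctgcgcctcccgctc
Atp5g3 (ERR, reverse strand, at -52): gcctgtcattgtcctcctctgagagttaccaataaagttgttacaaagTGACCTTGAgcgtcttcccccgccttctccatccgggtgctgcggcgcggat
Cox6a1 (NRF1 at -162 and -117, ETS on the reverse strand at -16): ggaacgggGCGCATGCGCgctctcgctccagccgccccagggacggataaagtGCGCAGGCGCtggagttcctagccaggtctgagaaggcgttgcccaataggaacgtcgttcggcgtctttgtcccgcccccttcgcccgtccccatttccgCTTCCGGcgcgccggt
Uqcr11 (ETS at -66): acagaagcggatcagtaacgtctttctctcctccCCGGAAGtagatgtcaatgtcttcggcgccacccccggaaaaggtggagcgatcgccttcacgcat
The same YY1 letters stood just after the start in Ndufs4, which rose in both genotypes, Ndufa9, which rose in WT, and Ndufs7, which fell in WT. These 30-base stretches lie at chr13:114388045-114388074 and chr6:126849096-126849125 on the minus strand and chr10:80249463-80249492 on the plus strand.
Ndufs4 (YY1 at 36): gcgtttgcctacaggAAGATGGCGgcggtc
Ndufa9 (YY1 at 30): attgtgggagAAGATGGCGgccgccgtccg
Ndufs7 (YY1 at 25): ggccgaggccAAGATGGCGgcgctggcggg
Of the 7 member windows with this motif, 2 were of members that rose in WT, 1 of a member that fell and 4 of members that did not pass. Whether the motif goes with the direction was not tested.

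Of 7 other nuclear genes of the chain that the naming rule did not take in, 3 rose and 0 fell with LPS in each genotype, against 35.7% of all genes higher in WT and 27.9% in KO. With quantile normalization and unscaled it was 1 up and 1 down in each genotype. Cycs, the cytochrome c that carries electrons from complex III to IV, read 5.65 and 5.32 in untreated WT, 7.95 and 8.09 in WT with LPS, 5.79 and 5.71 in untreated KO and 7.56 and 7.64 in KO with LPS. It rose by 2.53 ± 0.15 (SE, limma, adjusted p = 2.96e-05) in WT, a 5.79-fold level, and rose by 1.85 ± 0.15 (SE, limma, adjusted p = 1.50e-04) in KO. Atp5md, a small ATP synthase subunit, rose by 0.94 ± 0.18 (SE, limma, adjusted p = 0.00432) in WT and rose by 0.61 ± 0.18 (SE, limma, adjusted p = 0.0281) in KO. Cox4i1, the general isoform of complex IV subunit 4, rose by 0.38 ± 0.13 (SE, limma, adjusted p = 0.0407) in WT, and Cyc1, the cytochrome of complex III, rose by 0.58 ± 0.19 (SE, limma, adjusted p = 0.0469) in KO. The Cox4i1 difference was -0.44 at its lowest under the other scalings.

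Among 14 modulators and isoform partners, 7 rose and 2 fell in WT and 6 rose and 1 fell in KO, against 35.7% of all genes higher and 22% lower in WT and 27.9% and 20.6% in KO. With quantile normalization it was 6 up and 5 down in WT and 6 and 6 in KO, and unscaled 5 and 6, and 6 and 6. Among all genes fitted, 7038 rose and 8459 fell in WT and 6051 and 7593 in KO with quantile normalization. Unscaled it was 2450 and 8495 in WT and 2263 and 7845 in KO. AA467197 (Nmes1) encodes a small relative of Ndufa4 and had the largest response next to Nos2. It read -0.041 and -0.57 in untreated WT, 8.12 and 8.46 in WT with LPS, 1.02 and 1.15 in untreated KO and 8.04 and 8.06 in KO with LPS. It rose by 8.59 ± 0.21 (SE, limma, adjusted p = 1.47e-06) in WT and rose by 6.96 ± 0.21 (SE, limma, adjusted p = 4.38e-06) in KO, was higher in KO than in WT untreated by 1.39 ± 0.21 (SE, limma, adjusted p = 0.0284), and its response in KO was lower by a difference of -1.63 ± 0.30 (SE, limma, adjusted p = 0.0413). Nos2, the inducible nitric oxide synthase, whose product inhibits complex IV, rose by 9.98 in WT and 8.95 in KO (limma, adjusted p = 1.29e-06 and 2.58e-06). Acod1, which makes itaconate, an inhibitor of complex II, rose by 7.06 and 6.72 (limma, adjusted p = 1.28e-06 and 2.58e-06), and Hif1a by 3.18 and 2.80 (limma, adjusted p = 1.28e-05 and 2.99e-05). Sod2, the superoxide dismutase of mitochondria, was higher in untreated KO by 0.70 ± 0.13 (SE, limma, adjusted p = 0.0493).

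Assembly factors insert cofactors and join subunits but stay out of the finished complexes. With LPS they were called in both directions, at a share near that of all genes. Of all genes 57.7% were called in WT, 35.7% higher and 22% lower, and 48.5% in KO, 27.9% higher and 20.6% lower. Of the 43 assembly factors tested, 11 rose and 15 fell in WT and 9 rose and 15 fell in KO. In WT it was 8 and 21 with quantile normalization and 6 and 28 unscaled, and in KO 6 and 19, and 4 and 29. The copper chaperones of complex IV moved apart. Sco1 read -0.73 and -0.72 in untreated WT, 2.78 and 2.84 in WT with LPS, -0.56 and -0.64 in untreated KO and 1.46 and 1.37 in KO with LPS, and it rose by 3.54 ± 0.12 (SE, limma, adjusted p = 3.39e-06) in WT and rose by 2.02 ± 0.12 (SE, limma, adjusted p = 3.41e-05) in KO. Sco2 read 3.30 and 3.27 in untreated WT, 1.15 and 0.68 in WT with LPS, 2.93 and 2.85 in untreated KO and 2.34 and 2.25 in KO with LPS, and it fell by 2.37 ± 0.18 (SE, limma, adjusted p = 7.40e-05) in WT and fell by 0.60 ± 0.18 (SE, limma, adjusted p = 0.0322) in KO. Both responses were smaller in size in KO, with a difference of -1.52 ± 0.16 (SE, limma, adjusted p = 0.0158) for Sco1 and 1.77 ± 0.25 (SE, limma, adjusted p = 0.0258) for Sco2. With LPS, KO lay below WT for Sco1 by 1.39 ± 0.12 (SE, limma, adjusted p = 0.00195) and above WT for Sco2 by 1.38 ± 0.18 (SE, limma, adjusted p = 0.00633).

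Cox17, the copper donor upstream of both, rose by 2.42 ± 0.33 (SE, limma, adjusted p = 0.00106) in WT, and Cox18, which inserts the tail of COX2, rose by 2.34 ± 0.12 (SE, limma, adjusted p = 1.65e-05) in WT and rose by 1.85 ± 0.12 (SE, limma, adjusted p = 5.84e-05) in KO. Cmc2, a twin cysteine protein of complex IV assembly, fell by 2.30 ± 0.13 (SE, limma, adjusted p = 3.52e-05) in KO. Ndufaf7, a methyltransferase needed for complex I, read 2.32 and 2.50 in untreated WT, 0.11 and 0.04 in WT with LPS, 2.19 and 2.13 in untreated KO and -0.80 and -0.89 in KO with LPS and fell by 3.01 ± 0.13 (SE, limma, adjusted p = 1.15e-05) in KO, and was lower in KO than in WT with LPS by 0.92 ± 0.13 (SE, limma, adjusted p = 0.00741). Sdhaf1, which helps iron-sulfur insertion into Sdhb, read 2.02 and 2.22 in untreated WT, -0.094 and -0.24 in WT with LPS, 2.12 and 2.10 in untreated KO and 1.01 and 1.04 in KO with LPS. It was higher in KO than in WT with LPS by 1.19 ± 0.13 (SE, limma, adjusted p = 0.00389), having fell by 2.29 ± 0.13 (SE, limma, adjusted p = 2.26e-05) in WT and fell by 1.09 ± 0.13 (SE, limma, adjusted p = 7.51e-04) in KO, with a difference in response of 1.20 ± 0.18 (SE, limma, adjusted p = 0.0283). Ndufaf4, of complex I, likewise had a difference in response of 0.94 ± 0.17 (SE, limma, adjusted p = 0.0411). In KO against WT with LPS, 4 of the 43 assembly factors were higher and 3 lower, and the background over all genes in that comparison was 16.3%.

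Regulators of mitochondrial genes were read as a further list, and in WT the share that rose was near that of all genes. Of 17 tested, 6 rose and 6 fell in WT, and 2 rose and 7 fell in KO, against 35.7% of all genes higher and 22% lower in WT and 27.9% and 20.6% in KO. In WT it was 2 up and 6 down with quantile normalization and 0 and 10 unscaled, and in KO 2 and 7, and 1 and 10. Twnk, the helicase, fell by 1.84 ± 0.12 (SE, limma, adjusted p = 4.17e-05), Polrmt, the RNA polymerase, fell by 1.69 ± 0.13 (SE, limma, adjusted p = 9.09e-05), and Polg2, the accessory subunit of the DNA polymerase, fell by 1.63 ± 0.17 (SE, limma, adjusted p = 3.15e-04) in WT. Tfb2m, a transcription factor for Polrmt, fell by 1.36 ± 0.16 (SE, limma, adjusted p = 6.22e-04) in WT, while Ssbp1, which binds single-stranded mitochondrial DNA, rose by 0.56 ± 0.14 (SE, limma, adjusted p = 0.015) there, with -0.25 unscaled. Ssbp1 is named after its values were seen. In KO, Polg2 fell by 2.19 ± 0.17 (SE, limma, adjusted p = 1.15e-04), while Gabpb1, a subunit of GABP, rose by 1.09 ± 0.22 (SE, limma, adjusted p = 0.00796) and Esrra, the receptor ERR alpha, rose by 1.08 ± 0.12 (SE, limma, adjusted p = 5.13e-04). Ppargc1a, a coactivator of ERR and NRF1, was well above background on 6 of the 8 arrays and fell in KO by 1.09 ± 0.34 (SE, limma, adjusted p = 0.0396), with a difference of 0.17 after normexp background correction.

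With LPS, 5 of the regulators were higher in KO than in WT and 0 lower, against 7.86% and 8.48% of all genes. Pprc1, a coactivator related to Ppargc1a, read -0.47 and -0.63 in untreated WT, -1.59 and -1.59 in WT with LPS, -0.29 and -0.11 in untreated KO and -0.44 and -0.40 in KO with LPS and was higher in KO by 1.17 ± 0.13 (SE, limma, adjusted p = 0.004). Twnk was higher by 0.89 ± 0.12 (SE, limma, adjusted p = 0.00719), Polrmt by 0.82 ± 0.13 (SE, limma, adjusted p = 0.0123) and Tfb2m by 0.81 ± 0.16 (SE, limma, adjusted p = 0.0236). For Twnk the response itself differed, by 1.07 ± 0.17 (SE, limma, adjusted p = 0.0312), and it was the only one of the 17 to pass that test. In 12 genes of coenzyme Q synthesis, 3 rose and 6 fell in WT and 2 rose and 5 fell in KO, against 57.7% and 48.5% of all genes called. Of all genes, 35.7% were higher and 22% lower in WT, and 27.9% and 20.6% in KO. Pdss1, which starts the side chain, read -1.65 and -1.72 in untreated WT, 1.50 and 1.31 in WT with LPS, -1.57 and -1.63 in untreated KO and 0.58 and 0.52 in KO with LPS and rose by 3.09 ± 0.13 (SE, limma, adjusted p = 6.70e-06) in WT and rose by 2.15 ± 0.13 (SE, limma, adjusted p = 3.67e-05) in KO. Coq8a, a kinase-like protein of the pathway, fell by 2.31 ± 0.11 (SE, limma, adjusted p = 1.31e-05) in WT and fell by 1.43 ± 0.11 (SE, limma, adjusted p = 1.26e-04) in KO. Coq10a, a coenzyme Q binding protein, fell by 2.48 ± 0.11 (SE, limma, adjusted p = 1.06e-05) in WT and fell by 1.93 ± 0.11 (SE, limma, adjusted p = 3.92e-05) in KO, while its relative Coq10b rose by 1.59 ± 0.13 (SE, limma, adjusted p = 1.05e-04) in WT and rose by 1.50 ± 0.13 (SE, limma, adjusted p = 1.77e-04) in KO. With LPS, KO was lower for Pdss1 by 0.86 ± 0.13 (SE, limma, adjusted p = 0.0092), and higher for Coq8a by 0.53 ± 0.11 (SE, limma, adjusted p = 0.0282) and Coq10a by 0.49 ± 0.11 (SE, limma, adjusted p = 0.0357).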

How the data were processed

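RNA of 8 samples was measured on 1-colour Agilent arrays. The authors deposited each array's scanner output, with spot intensity (the submitters' processing notes name Agilent Feature Extraction 10.7.3.1), and a table of log2 values. Set against the scanner output, the deposited log2 values matched background-subtracted signals with no scaling between arrays (medians of 10.67 to 11.11). Here log2 of the processed signal minus each array's 75th percentile was used, control spots were left out and spots of a probe averaged. A probe was kept if both arrays of some group had it well above background (39935 of 55681), and a gene was read by its brightest probe. A model with 4 group means was fitted to all 28001 genes and 8 arrays with limma 3.58.1 in R 4.3.3 (4 residual and 2.29 prior degrees of freedom), with p-values adjusted by Benjamini-Hochberg over the genes and called under 0.05. The script was tested on simulated data. The number of arrays limits the precision. Same-numbered samples did not deviate together (r of -0.188 to 0.028), so replicate numbers were not used as pairs.

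The members and gene lists were chosen with earlier results of these data known. Values per sample are given for the 5 called members with the largest rise and fall in each comparison, the member with the largest difference of each complex, complex II and isoform partners. Up to 4 called genes of each pathway list were named in each comparison, and of these some are given by their difference alone. Alternatives covered scaling, background, dim probes, probe choice, moderation, samples, slide column and replicate number. Probe positions are those of the array files (mm9), and promoters are from RefSeq tables. Values of some genes are not reported here.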

Additional observations from a re-analysis of the deposited data

Results flagged for a closer look

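The LPS response differed between KO and WT, by limma's test of the difference, for 9 genes of the pathway lists. As KO minus WT on the log2 scale it was 1.77 for Sco2, 1.20 for Sdhaf1, 1.07 for Twnk, 0.94 for Ndufaf4, 0.88 for Coq8a, -0.94 for Pdss1, -0.97 for Sod2, -1.52 for Sco1 and -1.63 for AA467197 (limma, adjusted p = 0.0258, 0.0283, 0.0312, 0.0411, 0.0407, 0.0439, 0.0451, 0.0158 and 0.0413). By list, 3 of 43 assembly factors passed higher and 1 lower, and 0 and 2 of 14 modulators and isoform partners. It was 1 and 0 of 17 regulators, 1 and 1 of 12 coenzyme Q genes and 0 and 0 of 7 other nuclear genes. The background over all genes was 4.34%, with 1.51% higher and 2.82% lower. All 9 genes kept their sign under the other scalings fitted, but the calls did not hold in each. AA467197, Sco1 and Sco2 were called under 5 of 6, Sdhaf1 under 4 of 6, Pdss1 under 3 of 6, Twnk under 3 of 5, Ndufaf4 under 2 of 6, Coq8a under 2 of 5 and Sod2 under 1 of 6. With arrays centred on the median of the subunit genes, AA467197 alone was called.

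For 6 genes the LPS samples of 1 genotype lay wholly above and those of the other wholly below their untreated samples. How many of all genes did so was not counted. Separation within a genotype was common, with 49% of all genes above and 29.1% below in WT, and 47.5% and 31.7% in KO. The differences in response were -0.34 for Atp5k and 0.14 for Uqcrc1 among the subunits, and -0.96 for Cox20, -0.61 for Ssbp1, -0.33 for Cmc1 and 0.27 for Atpaf2. These did not pass the test of the difference (limma, adjusted p = 0.389, 0.663, 0.138, 0.147, 0.318 and 0.41).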

How the results depend on the processing

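With LPS in WT, 23 members were called as reported, 50 with quantile normalization, 54 with unscaled values and 9 with only the 4 WT arrays, and leaving out each array gave 11 to 21. In KO (7 called) the count was 48 with quantile normalization, 53 unscaled, 13 with median centring, 12 with spike-in centring, 20 after normexp, 14 with probes well above background on all 8 arrays, 17 with only the 4 KO arrays, 16 with trended and robust moderation and 14 counted per probe, and leaving out each array gave 2 to 11. Centring on the members' own median, chosen after seeing the data, gave 14 in KO and 19 in WT. For KO against WT with LPS, 1 member was called unscaled (higher), and 1 after normexp and 1 with trended and robust moderation (both lower), and 0 without any array in turn. The other comparisons kept a count of 0.

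With the replicate number as a block, 17 members were called in WT and 6 in KO, and 0 in the other comparisons. With the numbers crossed in KO with LPS, chosen after seeing the data, 1 was called in KO against WT with LPS.

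With quantile normalization and then unscaled, 13 genes that rose in WT had negative differences: Atp5a1 -0.15 and -0.22, Atp5g3 -0.011 and -0.14, Atp5o -0.40 and -0.43, Atp5pb -0.035 and -0.086, Cox5a -0.12 and -0.17, Cox5b -0.21 and -0.31, Cox6a1 -0.32 and -0.33, Cox7c -0.15 and -0.042, Cox8a -0.29 and -0.30, Ndufa9 -0.088 and -0.46, Ndufb6 -0.30 and -0.40, Uqcrb -0.25 and -0.28, and Uqcrc2 -0.20 and -0.24. Relative to all members in WT, complex I was -0.14 without a filter on dim probes and -0.16 per probe, complex III 0.16 with quantile normalization, 0.19 unscaled, 0.19 after normexp and 0.098 with the mean of probes, and complex V 0.16 with quantile normalization, 0.25 with the mean of probes and 0.26 per probe. In KO, quantile normalization gave -0.10 for complex I, 0.27 for III and 0.32 for IV, and complex I was -0.092 with the mean of probes and -0.11 per probe. The cause was not tested. With 2 arrays a group, the intervals limit which differences could be seen.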
